A study of Mus musculus with 175 samples.

Results

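Immediate early genes were followed through single progenitor cells of the mouse fetal liver. The 10 genes, chosen as symbols, were Fos, Fosb, Jun, Junb, Jund, Egr1, Ier2, Ier3, Atf3 and Dusp1. All 10 were found among the 49585 mouse features of the count table, and 9 of them had a mean count of at least 1 read per cell, as did 11860 features in all. Atf3 was the member below that minimum.

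The cells came from E14.5 livers of C57BL/6 by ICR embryos that carry the Runx1 reporter P1-GFP::P2-hCD4/+, in which GFP and human CD4 report transcription from the distal P1 and the proximal P2 promoter of Runx1, and all cells analysed were heterozygous for this reporter. The genotype field of the labels spells it P2-GFP::P2-hCD4/+. Lineage-negative, Sca1-, cKit+, CD16/32low, CD41-, CD150+ cells were sorted as CD34- megakaryocyte/erythroid progenitors (MEPs) or CD34+ common myeloid progenitors (CMPs), each with (P2+) or without (P2-) human CD4 on the surface, and the full-length cDNA of each cell was sequenced by a modified Smart-Seq2 protocol. The quality filters left 172 of 175 cells, 103 of them MEPs (56 P2- and 47 P2+) and 69 CMPs (27 P2- and 42 P2+). Where 4 values are listed in order below, MEPs come before CMPs and P2- before P2+ cells. The labels say that livers from 2 litters were combined, which makes each population 1 sample without a replicate, the cells are not replicates, and no p-value was computed. For 1 P2- CMP the subtype label reads MEP, and it was kept as its title names it. The comparisons ask how the members differ between P2+ and P2- cells of one compartment and between CMPs and MEPs of the same P2 state.

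Immediate early genes are switched on within minutes of a stimulus without any new protein being made. Growth factor, cytokine and stress signals reach them through the ERK, p38 and JNK kinases, which act on factors already bound at the promoters, namely SRF with its ETS partners and CREB. FOS and JUN proteins pair to form the AP-1 transcription factor, EGR1 is a zinc finger factor, and DUSP1 removes phosphate from the kinases that induced it. The messages are short-lived, and cell dissociation and sorting are also known to induce them.

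Upstream sequences are shown for 5 members, to show in which of the searched elements the windows of the members differ. They were taken from RefSeq on the mouse build GRCm38.p6, which gave a window for 8 of the 10 members, and are written 5′ to 3′ on the gene's strand up to the base before the RefSeq start site, which is position -1. Capitals mark the cAMP response element (CRE, TGACGTCA), its half-site TGACG on either strand, and TATAAA. The half-site and TATAAA were chosen after the windows had been seen. The windows are chr12:85473640-85473889 (plus strand) for Fos, chr17:26508473-26508722 (minus strand) for Dusp1, chr8:84978749-84978868 (minus) for Junb, chr1:191183334-191183453 (minus) for Atf3 and chr4:95052223-95052342 (minus) for Jun.
Fos: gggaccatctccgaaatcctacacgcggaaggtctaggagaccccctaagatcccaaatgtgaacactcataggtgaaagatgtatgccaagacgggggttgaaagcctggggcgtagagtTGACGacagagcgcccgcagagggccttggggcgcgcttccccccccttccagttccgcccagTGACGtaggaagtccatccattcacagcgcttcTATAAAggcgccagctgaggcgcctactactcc
Dusp1: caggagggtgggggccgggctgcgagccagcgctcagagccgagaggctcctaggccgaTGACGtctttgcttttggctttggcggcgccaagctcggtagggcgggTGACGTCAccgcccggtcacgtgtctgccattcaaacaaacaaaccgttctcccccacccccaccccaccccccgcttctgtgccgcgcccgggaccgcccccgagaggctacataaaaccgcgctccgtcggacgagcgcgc
Junb: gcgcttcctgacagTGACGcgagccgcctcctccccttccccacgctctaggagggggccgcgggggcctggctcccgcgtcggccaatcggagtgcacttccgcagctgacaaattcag
Atf3: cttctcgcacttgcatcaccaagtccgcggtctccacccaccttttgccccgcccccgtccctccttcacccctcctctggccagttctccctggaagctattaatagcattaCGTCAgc
Jun: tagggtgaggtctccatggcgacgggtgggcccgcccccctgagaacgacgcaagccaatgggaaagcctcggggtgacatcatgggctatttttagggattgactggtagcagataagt

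The Dusp1 window held the whole CRE at positions -143 to -136, which 1.55% of the 32851 promoter windows hold within their 250 upstream bases. Half-sites were found in the windows of 5 of 8 members (Fos, Fosb, Junb, Atf3 and Dusp1), against 17.8% of all windows, and a half-site within the CRE of Dusp1 is counted among them. The start site on which the window is set lies 1210 bases from the GENCODE gene start for Jund, 34706 bases for Atf3 and 53656 bases for Dusp1. The upstream bases of 7 of the 8 windows were above the median GC content of all windows (52.4%), with Jund at 47.6% below it and Fosb at 68.8% the highest. Fos held half-sites at -129 to -125 and -66 to -62 and TATAAA at -33 to -28, which 12.4% of windows hold. The CArG box, the AP-1 site TGANTCA and the EGR site GCGTGGGCG, each searched on both strands, were in none of the 8 windows and in 1.47%, 6.75% and 0.536% of all windows. These are matches of letters and not measured sites, variants of the searched patterns were not counted, and elements further upstream lie outside the windows. Egr1 and Ier2 had no window, so their promoters were not searched.

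The members together took the smallest share of the reads in P2- MEPs. The reads of all cells in a population were added up and given per 1000000 reads on mouse genes (CPM), and the 10 members summed to 557 CPM (P2-) and 1267 CPM (P2+) in MEPs and 1155 CPM (P2-) and 1171 CPM (P2+) in CMPs. Single cells varied far more than the populations. The summed level of a P2- MEP lay between 53.6 and 2174 CPM with a median of 385 CPM, and that of a P2+ MEP between 52.9 and 3736 CPM with a median of 1163 CPM. For the CMPs the medians were 1089 CPM (P2-, 152 to 3425 CPM) and 1021 CPM (P2+, 75.7 to 3544 CPM). The ranges of all 4 populations overlapped. Ier2 held the largest share of the members' reads in P2- MEPs (28.9%) and Fos in the other populations (34.3% in P2+ MEPs and, among CMPs, 28.5% of P2- and 34.8% of P2+ reads). Intervals given below are 95% intervals for counting error. They are narrower than the real uncertainty, since PCR copies are not told apart and the cells come from 1 pool.

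**Figure D1:**
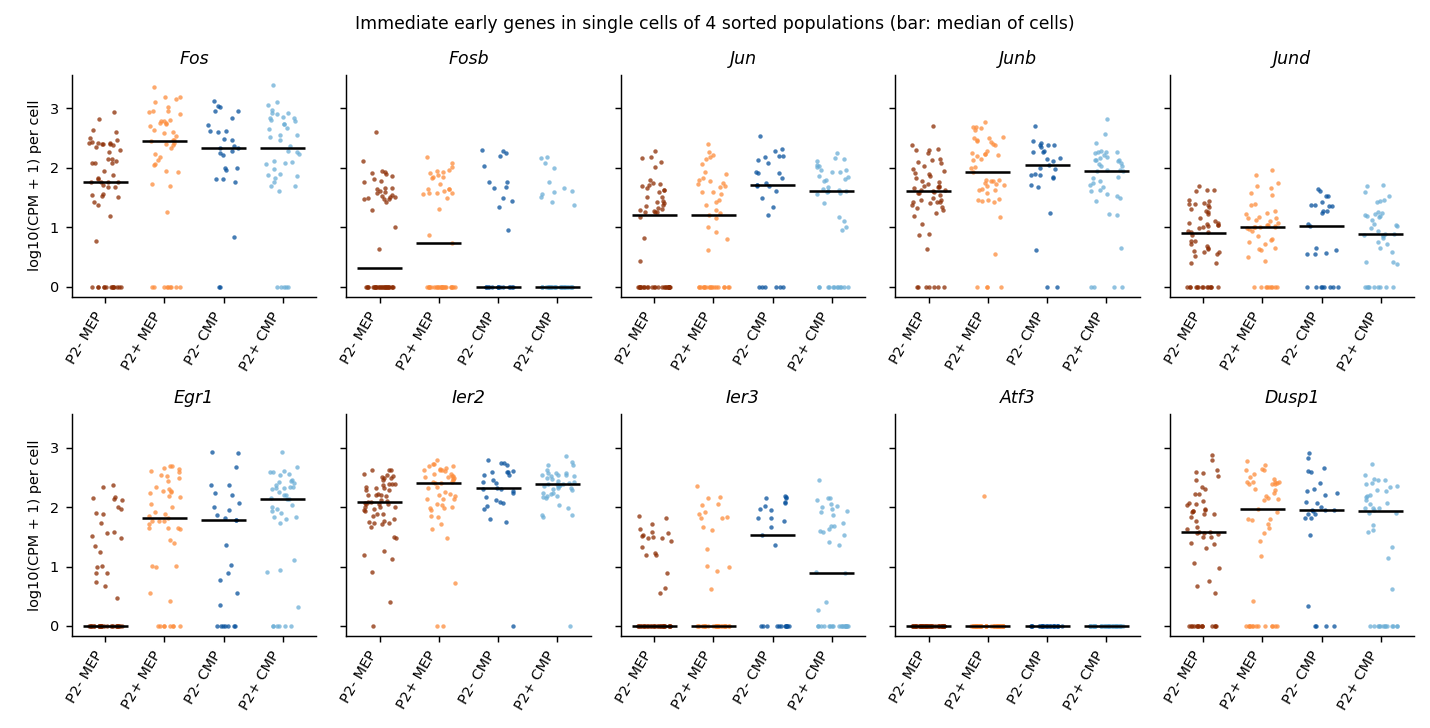
Level of each of the 10 members in every cell, as log10(CPM + 1), by sorted population (MEPs left and CMPs right in each panel, P2- before P2+), with a bar at the median over cells. The clouds overlap in all panels, the Fos bar lies lowest in P2- MEPs (57.5 CPM), the Egr1 bar is at 0 there, and Atf3 has a single cell above 0.

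Fos, on chr12:85473890-85477273, encodes the partner of JUN in AP-1 and gave the most reads. Its pooled level was 122 CPM (P2-) and 435 CPM (P2+) in MEPs and 328.8 CPM (P2-) and 407.5 CPM (P2+) in CMPs, and with the populations ranked by level no neighbouring counting intervals overlapped. Every population had cells at 0. The median over MEPs was 57.5 CPM for P2- cells, with the highest cell at 888 CPM, and 287.2 CPM for P2+ cells, with the highest at 2293 CPM. Over CMPs the medians were 215.8 CPM (P2-, highest cell 1324 CPM) and 213.1 CPM (P2+, 2523 CPM). Thus P2- MEPs were low, and the other 3 populations lay close together by their medians. At an equal depth of 100000 reads per cell, reached by random thinning, Fos was read in 73.2% of P2- MEPs (41 of 56, Clopper-Pearson interval 59.7 to 84.2%) and 80.9% of P2+ MEPs. Among CMPs it was read in 88.9% (P2-) and 88.1% (P2+), so that these shares differed by less than their counting intervals (the lowest of the other 3 intervals began at 66.7%). The population levels differed by 3.58-fold between the highest and the lowest.

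Fosb, the close relative of Fos on chr7:19302696-19310051, did not follow that order. Its level was 27.8 CPM (P2-) and 31.6 CPM (P2+) in MEPs and 34.1 CPM (P2-) and 17.9 CPM (P2+) in CMPs, and by rank only the lowest interval, that of P2+ CMPs (16.6 to 19.3 CPM), stood apart from its neighbour. Its reads were found in 48.2% (P2-) and 46.8% (P2+) of the MEPs and 48.1% (P2-) and 26.2% (P2+) of the CMPs, where 31 of 42 cells had no read. The 5 cells with the most Fosb reads held 72.3% of the Fosb reads of the P2+ CMPs, and 1 cell held 26.3%.

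The JUN proteins bind DNA as AP-1 with a FOS protein or with each other. Jun and Junb differed in where their pooled level was highest, while the median over cells of each was highest in P2- CMPs. Jun, on chr4:95049034-95052222, measured 27.2 CPM (P2-) and 39.8 CPM (P2+) in MEPs and 71.2 CPM (P2-) and 47.5 CPM (P2+) in CMPs, with medians over cells of 15.2, 14.9, 50.8 and 39.5 CPM in that order. Both CMP populations were above both MEP populations by pooled level and by median, though the ranges over cells (0 to 192 CPM in P2- MEPs, 0 to 345.1 CPM in P2- CMPs) overlapped. Junb, on chr8:84974484-84978718, measured 71.5 CPM (P2-) and 157 CPM (P2+) in MEPs and 143 CPM (P2-) and 109 CPM (P2+) in CMPs, with medians of 39.1, 83.8, 109 and 89.0 CPM. By its median Junb was highest in P2- CMPs and by its pooled level in P2+ MEPs. Jund, on chr8:70698949-70700616, was low, at 10.3 (P2-) and 15.7 CPM (P2+) in MEPs and at 13.2 and 10.7 CPM in CMPs, and the intervals of all neighbours by rank overlapped. In GENCODE M21 the antisense gene Gm11175, which had 0 reads in the 4 populations, covers 52.6% of the exon bases of Jund, and counting without strand sets reads aside where genes overlap, so the Jund level is uncertain. The overlap was 7.28% for Jun (Junos), 7.52% for Junb (Prdx2, at 370.7 to 901 CPM and highest in P2- MEPs) and 0.332% for Dusp1 (Ergic1).

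Egr1, the zinc finger factor, had the widest spread between populations of the 9 members tested, 5.93-fold. It measured 28.6 CPM (P2-) and 127 CPM (P2+) in MEPs and 111 CPM (P2-) and 169.9 CPM (P2+) in CMPs, and the intervals of neighbours did not overlap. Its median over cells was 0 CPM (P2-) and 65.4 CPM (P2+) in MEPs and 58.9 CPM (P2-) and 139 CPM (P2+) in CMPs, with highest cells at 236.9, 495, 835 and 836 CPM. It was read in 37.5% of P2- MEPs (21 of 56, interval 24.9 to 51.4%) and in 83.3% of P2+ CMPs (35 of 42, 68.6 to 93.0%), whose intervals did not overlap, and in 76.6% of P2+ MEPs and 55.6% of P2- CMPs.

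Ier2, which encodes a small nuclear protein, was the most widely read member, in 94.6% (P2-) and 95.7% (P2+) of MEPs and in 96.3% (P2-) and 97.6% (P2+) of CMPs. Its gene has a single exon on chr8:84661331-84662852. The pooled levels were 161, 260.9, 244.1 and 254.9 CPM in the same order and the medians 119, 253.9, 209.3 and 240.8 CPM, so P2- MEPs were low and the intervals of neighbours among the other 3 overlapped. Per kilobase of exon, the scale on which genes can be compared, Ier2 (106 CPM per kb) was above Fos (51.7) in P2- MEPs and below it in P2+ MEPs (171 against 185). In P2- CMPs Ier2 stood at 160.4 and Fos at 139.8 CPM per kb, and in P2+ CMPs at 167.5 and 173.2. Ier3, a gene of chr17:35821684-35822923 whose product limits cell death, was at 10.1 CPM (P2-) and 32.5 CPM (P2+) in MEPs and 50.01 CPM (P2-) and 46.1 CPM (P2+) in CMPs, and the intervals of the CMP populations overlapped. It was the member, Atf3 aside, with the fewest MEPs read, 25% of P2- MEPs and 29.8% of P2+ MEPs against 55.6% of P2- CMPs and 52.4% of P2+ CMPs. Thus the 3.23-fold higher Ier3 level of P2+ over P2- MEPs came with nearly equal shares of cells read, and the highest cell stood at 224.1 CPM in P2+ MEPs and at 69.1 CPM in P2- MEPs.

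Dusp1, the MAPK phosphatase, on chr17:26505590-26562128, measured 99.03 CPM (P2-) and 166 CPM (P2+) in MEPs and 159 CPM (P2-) and 108 CPM (P2+) in CMPs, with medians over cells of 36.5, 93.7, 89.1 and 85.0 CPM. The P2- MEPs were again lowest, and the intervals of P2+ MEPs and P2- CMPs overlapped. Atf3, a stress-induced AP-1 partner on chr1:191170296-191218039, was read in 1 cell only, a P2+ MEP with 52 reads. The P2- MEPs had 0 of 56 cells with a read and the CMPs 0 of 27 (P2-) and 0 of 42 (P2+), which allows shares of up to 5.36%, 11.1% and 7.14%, taking 3 cells as the limit for a count of 0. No ratio is given for Atf3, since it would rest on that cell.

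In MEPs the pooled level of all 9 members tested was higher in P2+ than in P2- cells, and for 4 of them by at least 2-fold. This did not hold for the median over cells of Jun (15.2 CPM in P2- and 14.9 CPM in P2+ cells) and of Ier3 (0 in both). Among all genes 15.3% were at least 2-fold higher and 6.59% at least 2-fold lower in this comparison. Egr1 was 4.43-fold higher (log2 ratio 2.15, interval 2.04 to 2.25), Fos 3.58-fold (1.84, 1.79 to 1.89), Ier3 3.23-fold (1.69, 1.51 to 1.88) and Junb 2.20-fold (1.13, 1.06 to 1.21). The others had log2 ratios of 0.74 for Dusp1, 0.70 for Ier2, 0.61 for Jund, 0.55 for Jun and 0.19 for Fosb (0.05 to 0.32). The median of the 9 was 0.74 and that of all 11625 genes with a ratio 0.05, and 6270 of those genes were above 0. None of the 9 was lower by its pooled level.

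In CMPs 0 of 9 members were 2-fold apart between P2+ and P2- cells in either direction, where 9.82% of all genes were at least 2-fold higher and 9.36% at least 2-fold lower. Egr1 (log2 ratio 0.61, 0.54 to 0.69) and Fos (0.31, 0.27 to 0.35) were higher in P2+ CMPs, and Ier2 (0.06, 0.01 to 0.11) was nearly level. Fosb was lowest relative to P2- CMPs (-0.93, -1.09 to -0.77), followed by Jun (-0.58), Dusp1 (-0.56), Junb (-0.40), Jund (-0.31) and Ier3 (-0.12). For Fosb the call depended on the weight of the cells, since with equal weight for every cell it passed 2-fold (-1.10), and without the cell whose labels conflict it was -0.73. The median of the 9 members was -0.31, against -0.02 for all genes. Thus 6 of the 9 were above 0 in MEPs and below 0 in CMPs with both counting intervals off 0, as were 17.7% of all genes, while 12.5% went the opposite way. Intervals narrow with more reads, and these shares of all genes were not matched to the members for read number.

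**Figure D2:**
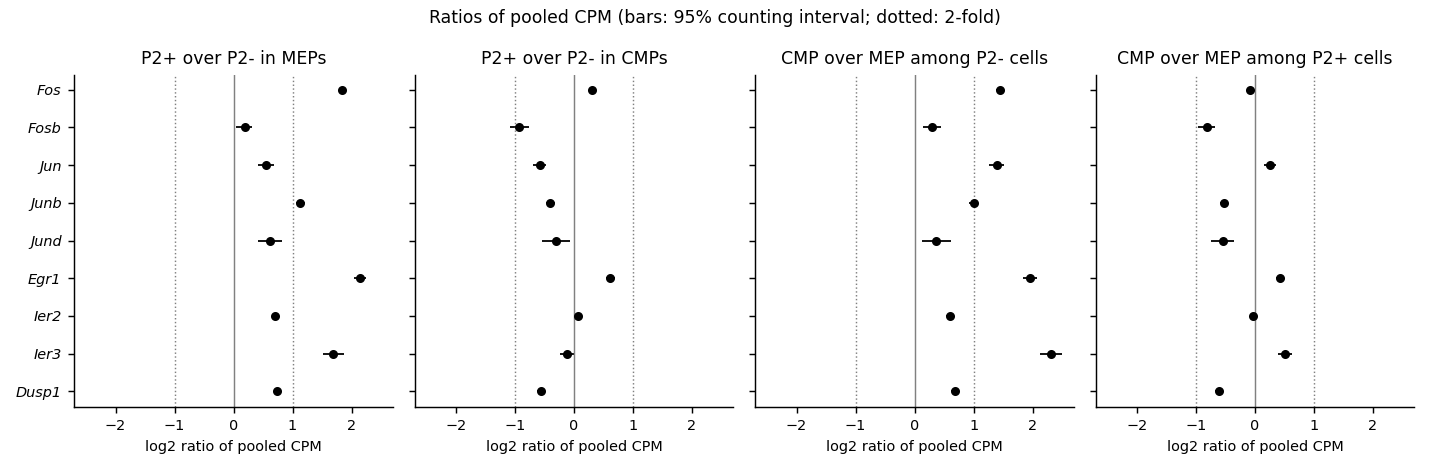
Log2 ratio of pooled CPM (x axis) for the 9 members with a mean count of at least 1, in the 4 comparisons, with bars for the 95% counting interval and dotted lines at 2-fold. All 9 points lie right of 0 for P2+ over P2- in MEPs and for CMP over MEP among P2- cells, while no point passes a dotted line to the left or right in the other 2 panels.

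CMPs were compared with MEPs of the same P2 state, and the 4 comparisons share their populations. Among P2- cells the pooled level of all 9 members was higher in CMPs and that of 5 by at least 2-fold, though the median over cells of Fosb was higher in MEPs (1.69 CPM) than in CMPs (0). In this comparison 22.6% of all genes were at least 2-fold higher and 9.34% at least 2-fold lower, and 6505 of 11793 genes were above 0. Ier3 was 4.97-fold higher (log2 ratio 2.31, 2.13 to 2.50), Egr1 3.88-fold (1.96), Fos 2.71-fold (1.44) and Jun 2.62-fold (1.39). Junb lay just inside the limit (2.002-fold) and the next below it was Dusp1 (1.61-fold, log2 ratio 0.69). Junb fell outside it without the cell with conflicting labels (0.96) or without the highest cell of each population (0.98). Among P2+ cells 0 of 9 members were 2-fold apart, with 17% of all genes at least 2-fold higher and 10.3% lower. Log2 ratios of CMP over MEP there ran from -0.82 for Fosb to 0.50 for Ier3, with Fos at -0.09 and Ier2 at -0.03 (-0.08 to 0.01).

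A list of other immediate early genes was examined beside the members. Of 34 listed genes, all found in the table, 26 had a ratio in MEPs and 21 were higher in P2+ cells, as were 6270 of all 11625 genes. By at least 2-fold 9 were higher (15.3% of all genes) and 3 lower (6.59%), with a median log2 ratio of 0.49. One of the 9 was Egr2, whose call the filter fixed, since it passed the minimum mean count only through P2+ MEPs (0, 189, 1 and 0 reads, in the order P2- and P2+ MEPs, then P2- and P2+ CMPs). Nr4a1, an orphan nuclear receptor, was at 0.163 CPM (P2-) and 31.3 CPM (P2+) in MEPs and 54.5 CPM (P2-) and 76.9 CPM (P2+) in CMPs. Btg2, an antiproliferative gene, was 14.4-fold higher in P2+ than in P2- MEPs (log2 ratio 3.85), Klf6 5.53-fold (2.47) and Zfp36, whose protein binds AU-rich messages for decay, 2.94-fold (1.56). Tnfaip3 (-2.63), Plk3 (-1.57) and Nfkbiz (-1.48) were lower. Myc, the highest of the list by level, measured 394.5 CPM in P2- and 345.7 CPM in P2+ MEPs (log2 ratio -0.19). In CMPs 2 of 25 were at least 2-fold higher and 4 lower in P2+ cells (9.82% and 9.36% of all genes), with a median of 0.01. Among P2- cells 15 of 25 were at least 2-fold higher in CMPs and 2 lower (22.6% and 9.34% of all genes), with a median of 1.25, and among P2+ cells 8 of 26 were higher and 4 lower, Egr2 among the latter (17% and 10.3%), with a median of 0.23.

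The MAPK phosphatases and feedback genes, most of which damp ERK or receptor signalling while Dusp10 and Dusp16 act on JNK and p38, had a median log2 ratio of 1.06 for P2+ over P2- MEPs, with 5 of 10 at least 2-fold higher and 0 lower (15.3% and 6.59% of all genes). Dusp6, a phosphatase of ERK, was 4.14-fold higher (2.05), Dusp2 2.83-fold, and Spry1 stood at 0.131 CPM in P2- and 3.23 CPM in P2+ MEPs. In P2+ against P2- CMPs 0 of 10 were at least 2-fold higher and 2 lower, Errfi1 (-2.91) and Dusp10 (-1.46), against 9.82% and 9.36% of all genes. Between CMPs and MEPs 6 of 10 were at least 2-fold higher in CMPs among P2- cells and 0 lower (22.6% and 9.34% of all genes), and 3 higher and 2 lower among P2+ cells (17% and 10.3%). AP-1 partners were 2-fold apart in 0 of 7 cases between P2+ and P2- MEPs and in 0 of 7 between P2+ and P2- CMPs, where of all genes 15.3% were higher and 6.59% lower in MEPs and 9.82% and 9.36% in CMPs. Between CMPs and MEPs 1 of 7 was at least 2-fold higher (Batf, 1.07) and 2 lower (Mafk, -1.66, and Mafg, just past the limit) among P2- cells, and 1 higher (Batf, 1.16) and 0 lower among P2+ cells. Of all genes 22.6% were higher and 9.34% lower among P2- cells and 17% and 10.3% among P2+ cells. Atf4, the highest of them in MEPs, was at 398 (P2-) and 302.4 CPM (P2+) in MEPs and at 277.2 and 177 CPM in CMPs. Of the upstream factors and kinases 2 of 16 were at least 2-fold higher in P2+ MEPs, a share below the 15.3% of all genes, the ETS factor Elk3 (1.84) and the SRF cofactor Mkl2 (1.34), and 0 lower. In CMPs 1 of 16 was higher, Mapk3 (1.11), and 3 lower in P2+ cells (9.82% and 9.36% of all genes). In CMPs against MEPs 4 of 16 were higher and 1 lower among P2- cells, and 3 higher and 3 lower among P2+ cells, against 22.6% and 9.34% of all genes in the first case and 17% and 10.3% in the second. Srf itself was at 36.5 (P2-) and 53.1 CPM (P2+) in MEPs and at 30.4 and 21.9 CPM in CMPs. Of 10 heat shock genes, the stress-inducible Hspa1a (0 to 5 reads a population) and Hspa1b (0 to 27 reads) did not reach the minimum mean count. The other 8 were 2-fold apart in 0 cases between P2+ and P2- MEPs and in 0 between P2+ and P2- CMPs, against the same shares of all genes as for the AP-1 partners, with medians of -0.19 and -0.22, and their summed level was highest in P2- MEPs (15041 CPM) and lowest in P2+ CMPs (9850 CPM). Of the 8, Hsph1 was just past 2-fold lower in P2+ CMPs than in P2+ MEPs (128.2 and 256.9 CPM), where 10.3% of all genes were at least 2-fold lower. Of the S phase genes 0 of 10 and of the mitosis genes 1 of 10 (at least 2-fold lower in P2+ cells) were 2-fold apart in MEPs, where 15.3% of all genes were higher and 6.59% lower. In CMPs it was 0 of 10 of each list, against 9.82% and 9.36% of all genes.

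Lineage markers also differed between the populations. The erythroid list summed to 1976 CPM (P2-) and 1130 CPM (P2+) in MEPs and 809 CPM (P2-) and 446 CPM (P2+) in CMPs. Of its genes 7 of 9 were lower in P2+ than in P2- MEPs, as were 5355 of all 11625 genes. By at least 2-fold 4 were lower (6.59% of all genes), among them Hba-a1, which passed the minimum mean count only through P2- MEPs. The megakaryocytic list summed to 56.5, 569, 596 and 690.5 CPM in that order, and 8 of 8 of its genes were at least 2-fold higher in P2+ MEPs (15.3% of all genes). The stem and multipotent list summed to 8.72, 129, 761 and 1195 CPM, of which Cd34, which the sort used, gave 0.0327, 13.1, 274.3 and 541 CPM. The granulocyte/monocyte list summed to 16.3, 66.6, 404 and 653 CPM. Of other cell types, macrophage markers summed to at most 10.2 CPM, with Adgre1, C1qa, C1qb, C1qc and Cd5l at 0 reads in every population. Hepatocyte markers summed to 10.3 to 24.7 CPM with Serpina1a at 0. Endothelial markers summed to 1.67 CPM (P2-) and 22.8 CPM (P2+) in MEPs and 70.6 CPM (P2-) and 98.5 CPM (P2+) in CMPs. Nearly all of that was Tek (1.57, 21.4, 43.1 and 31 CPM in that order) and Emcn (0, 0, 25.6 and 63.7 CPM). Cdh5, Kdr, Stab2 and Lyve1 were each at most 1.79 CPM. Mast and basophil markers summed to 0.327, 2.69, 72.8 and 34.2 CPM, nearly all of it Cpa3, with Ms4a2, Fcer1a, Gzmb and Prss34 at 0. Whether lineage makeup, stage or handling had a part in the members' levels was not tested.

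The libraries overlapped in depth and quality. Reads on mouse genes per cell were 295064 to 1540631, with the deepest median in P2+ CMPs. The median ERCC share was 1.46% (P2-) and 2.48% (P2+) in MEPs and 2.13% (P2-) and 1.73% (P2+) in CMPs, and the median mitochondrial share 3.92%, 4.61%, 4.07% and 3.54%. The labels used here name no plate, and a difference between plates was not tested.

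Nearly every cell had several members at once. At 100000 reads per cell the median number of the 10 members read was 5 for P2- MEPs (range 1 to 9) and 6 for P2+ MEPs, 7 for P2- CMPs and 6 for P2+ CMPs (range 2 to 9 for each of these), and 0 cells had none. Cells with at least 7 members numbered 14 of 56 P2- and 21 of 47 P2+ MEPs, and 14 of 27 P2- and 16 of 42 P2+ CMPs. Cells without a Fos read had fewer of the others in MEPs, with a median of 3 against 5 in P2- MEPs (15 cells without Fos) and 3 against 6 in P2+ MEPs (9 cells). In CMPs the medians were 4 against 6 in P2- cells (3 cells without Fos) and 5 against 5 in P2+ cells (5 cells). Of the 22 P2+ MEPs with a Fosb read 22 also had Fos, as did 13 of 13 P2- CMPs. Fosb without Fos was seen in 2 P2- MEPs and 1 P2+ CMP.

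**Figure D3:**
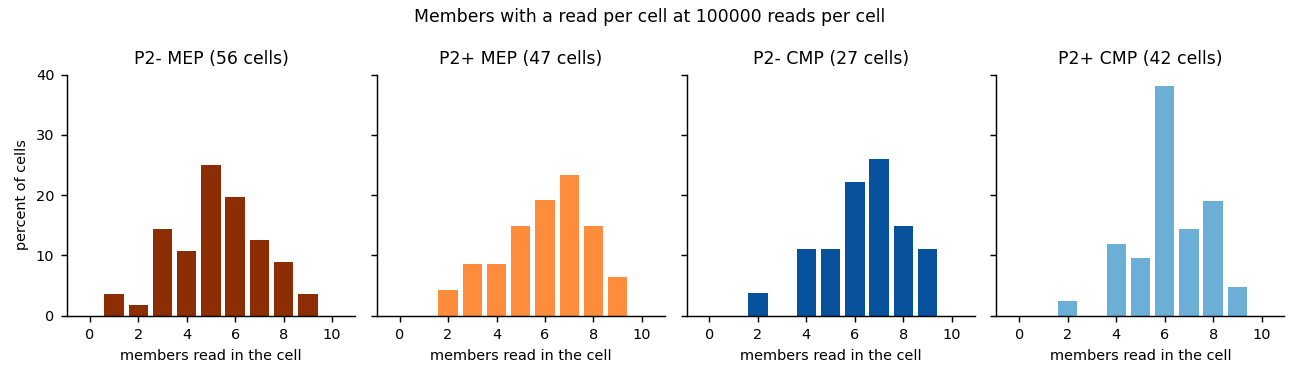
Percent of the cells of each population (y axis) by the number of the 10 members with a read (x axis), at 100000 reads per cell. Among MEPs the peak lies at 5 (P2-) and 7 (P2+) members and among CMPs at 7 (P2-) and 6 (P2+), and no cell has 0 or 10.

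Within a population the members tended to be high in the same cells. Spearman's rho was taken over the cells of each population after thinning, for the 36 pairs of the 9 members above the minimum. The cells share a pool and their library's depth was set equal, and rho is given as a description. The median rho was 0.17 (P2-) and 0.20 (P2+) in MEPs and 0.19 (P2-) and 0.15 (P2+) in CMPs, where the median over all pairs of the 8741 genes read in at least 25% of cells was 0.001 to 0.003. Of the 36 pairs 33, 33, 28 and 30 were above 0 in that order. A rho of at least 0.3 was reached by 11 of 36 pairs in P2- MEPs (30.6%, against 1.43% of all pairs), 8 in P2+ MEPs (22.2% against 2.38%), 14 in P2- CMPs (38.9% against 7.08%) and 7 in P2+ CMPs (19.4% against 3.05%). The count in P2+ CMPs was 4 without the cell in which the members were highest, and those in MEPs were 5 for P2- and 4 for P2+ cells when thinned to 50000 reads. With 27 to 56 cells a single rho is imprecise.

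The pairs Egr1 with Ier2 and Fos with Fosb reached 0.3 in all 4 populations. Egr1 with Ier2 had a rho of 0.51 (P2-) and 0.46 (P2+) in MEPs and 0.52 (P2-) and 0.33 (P2+) in CMPs, and Fos with Fosb 0.60, 0.46, 0.42 and 0.31. Fos with Dusp1 followed with 0.45, 0.21, 0.50 and 0.42. By mean rho over the 4 populations the next pairs were Fos with Ier2 (0.37) and, at 0.36 each, Fos with Egr1, Fosb with Egr1 and Fosb with Jund. Dusp1 was lower with Egr1 (0.20) and with Ier2 (0.15). In P2- MEPs Fosb was the nearest of 8740 other genes to Fos, Fos the nearest to Fosb, Fosb the nearest to Egr1 and Egr1 the nearest to Ier2. The nearest gene was no member for the other 5 members there, nor for any of the 9 in the other 3 populations. Ier3 was weak against the others in most populations, with a rho against the other members' score of 0.13 (P2-) and 0.25 (P2+) in MEPs and of 0.15 and -0.15 in CMPs, and with -0.40 against Fosb and -0.38 against Dusp1 in P2+ CMPs. Jun was also weak against the others (0.24, 0.06, 0.26 and 0.23), while Fos was at 0.58, 0.42, 0.59 and 0.58. Junb was at 0.29, 0.39, 0.08 and 0.29.

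**Figure D4:**
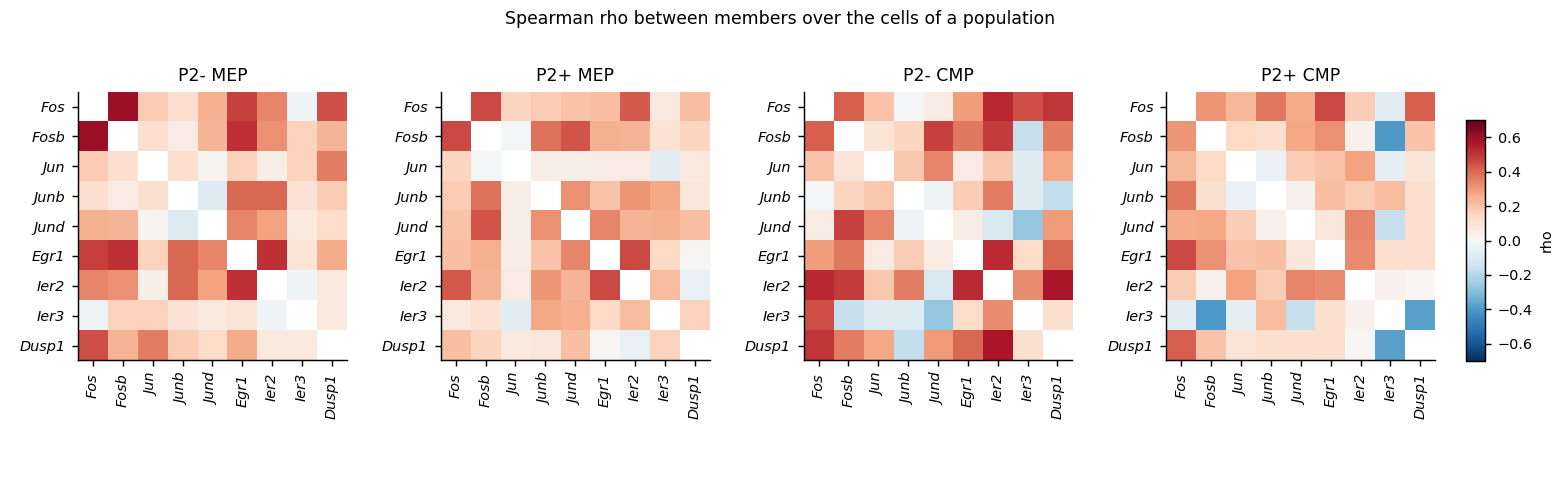
Spearman's rho between each pair of the 9 members over the cells of each population (colour scale from -0.7, blue, to 0.7, red; the diagonal is left white). Fos with Fosb and Egr1 with Ier2 are red in all 4 panels, from 0.31 to 0.60, and the Ier3 row is mostly pale or blue, down to -0.40 with Fosb in P2+ CMPs, with 0.45 for Fos and 0.33 for Ier2 in P2- CMPs as exceptions.

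A score was formed as the mean rank of the 10 members among the cells of a population, and the 8685 other genes were ordered by their mean rho with it over the 4 populations. Zfp36 was the gene most like the score, with 0.43 (P2-) and 0.34 (P2+) in MEPs and 0.49 (P2-) and 0.30 (P2+) in CMPs (mean 0.39, where 95% of genes were below 0.15). The nearest 10 genes also held Tln1 (mean 0.33), Lars2 (0.32) and Nr4a1 (0.31), the last with -0.08, 0.26, 0.63 and 0.41 in the same order. Itga4, Nucks1 and Spn (0.30 each) and Grb2 and Mfsd2b (0.29 each) were among them too. Without thinning 6 of these 10 remained, among them Zfp36, Nr4a1, Tln1, Lars2 and Itga4, and when genes were ordered by their lowest rho 2 remained, with Zfp36 again first. Of the 14 other immediate early genes that could be placed 11 had a mean rho above 0, with a median of 0.14 against 0.01 for all genes, from Klf10 at -0.13 to Zfp36. Klf6 was at 0.24, Rhob at 0.21, Nr4a2 and the phosphatase subunit Ppp1r15a at 0.20, and Myc at -0.12. The gene of the lowest mean rho was Fth1 (-0.29), a ferritin subunit.

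Against gene lists scored in the same way, the members' score had a rho with the other immediate early genes of 0.39 (P2-) and 0.38 (P2+) in MEPs and 0.56 (P2-) and 0.30 (P2+) in CMPs. With the erythroid list it was -0.51 in P2- MEPs and -0.45 in P2+ MEPs, and -0.07 and 0.17 in P2- and P2+ CMPs. With the megakaryocytic list it was 0.27, 0.37, 0.01 and 0.07. Among single genes of the erythroid list in MEPs, rho was -0.53 (P2-) and -0.29 (P2+) for Car2, -0.38 and -0.32 for Rhag, and -0.07 and 0.00 for Gata1, the erythroid master regulator. The difference between MEPs and CMPs was not tested. The feedback genes were at 0.18, 0.34, 0.04 and 0.17 and the heat shock genes at -0.17, -0.12, -0.03 and 0.12. The mitosis list was at 0.00, -0.05, 0.54 and -0.04, the high value being that of P2- CMPs, and the S phase list at -0.12, -0.04, -0.26 and -0.25. In P2- CMPs the mitochondrial share of the reads also had a rho of 0.71 with the score, against 0.32 (P2-) and -0.10 (P2+) in MEPs and -0.03 in P2+ CMPs, and the number of reads was at -0.39. The unmapped share was at 0.35 in P2- MEPs and 0.37 in P2- CMPs, and the ERCC share at 0.26 in P2- MEPs and -0.26 in P2+ CMPs. The part of these measures in the co-variation was not tested.

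**Figure D5:**
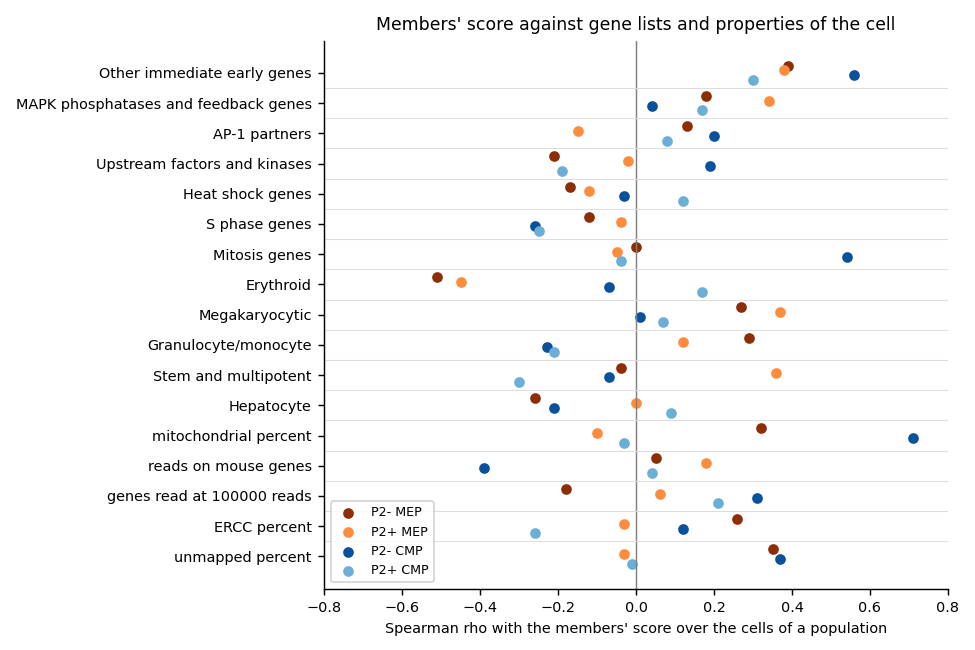
Spearman's rho (x axis) over the cells of each population between the members' score and the scores of gene lists or properties of the cell (rows), with a point for each population. The other immediate early genes lie right of 0 in all 4 populations (0.30 to 0.56), the erythroid list lies far left in both MEP populations (-0.51 and -0.45), and the mitochondrial share stands out in P2- CMPs (0.71).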

How the data were processed

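Single-cell libraries of 4 sorted populations were examined. Per the labels' processing notes and the article, the authors trimmed the reads (Trimmomatic 0.36), aligned them with STAR 2.4.2a to GRCm38 with the ERCC sequences, counted them on exons of GENCODE M12 with HTSeq 0.6.1p1 without regard to strand, and deposited raw counts per gene and cell. The authors also deposited alignment statistics, among them the percent of unmapped reads per cell. Of the uniquely mapped reads 25.6% overlapped several genes and 7.40% lay outside all features, and these 5 tally rows stayed out of all totals. CMPs are called low and high in the labels, which was read as P2- and P2+.

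Cells with at least 250000 reads, at most 25% unmapped reads and at most 15% ERCC reads were kept, as in the article. Computed here were pooled CPM without pseudocount (exact Poisson intervals), log2 ratios (exact conditional binomial intervals, only where a population had more than 3 reads, and with a population at 0 set to 3 reads), shares of cells (Clopper-Pearson) and Spearman's rho at an equal depth of 100000 reads drawn without replacement from each cell, which every kept cell reached. Genes needed a mean count of at least 1 and, for rho, a read in 25% of cells. Intervals cover counting error only. The members' score is the mean of within-population ranks. Gene positions and overlaps are those of GENCODE M21 on GRCm38. Members and gene lists were chosen with earlier results of these data known. The genes named are the members, genes of the lists that were 2-fold apart or highest by level, and the 10 genes nearest to the score, of which 1 is not reported here. Fth1 and the further placed list genes were named after their values were seen. Ratios and rho were tested on simulated data, in which the counts of a gene varied between cells only by depth and counting error. They do not show how the intervals behave for cells that differ as much as these. Alternatives were equal weight per cell, DESeq2-type size factors computed from their definition, every deposited cell, leaving out single cells, another denominator, no count filter, other thinning depths and Pearson's r. Python 3.11.15, numpy 2.4.6, pandas 2.3.3, scipy 1.17.1 and matplotlib 3.10.9 were used.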

Additional observations from a re-analysis of the deposited data

Results flagged for a closer look

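For 6 of the 9 members tested, the P2+ to P2- ratio lay above 0 in MEPs and below 0 in CMPs, with both counting intervals off 0, though that of Ier3 in CMPs ends at 0 when rounded to 2 decimals. Of all 11591 genes with both ratios, 17.7% met the same rule in this direction and 12.5% in the opposite one. These shares were not matched to the members for read number, on which the width of the intervals depends. The log2 ratio of MEPs minus that of CMPs was 1.81 for Ier3 (1.69 and -0.12), 1.53 for Junb (1.13 and -0.40), 1.31 for Dusp1 (0.74 and -0.56), 1.14 for Jun (0.55 and -0.58), 1.12 for Fosb (0.19 and -0.93) and 0.92 for Jund (0.61 and -0.31). Each population is 1 pooled sample, so the difference between the compartments was not tested.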

How the results depend on the processing

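The log2 ratios of the 9 members were recomputed under 6 alternatives in each comparison. Of these values 160 stayed within the counting interval of the reported ratio, 54 moved out of it in the same direction or from a ratio whose interval held 0, and 2 reversed. Those were Ier2 for P2+ over P2- CMPs, at -0.02 with equal weight per cell and at -0.02 with DESeq2-type size factors. The number of members at least 2-fold lower in P2+ CMPs went from 0 to 1 (Fosb) with equal weight and to 1 with size factors, and in P2+ CMPs against P2+ MEPs to 1 (Atf3) with no filter on low counts. Without that filter Atf3 also took the members at least 2-fold higher in P2+ than in P2- MEPs from 4 to 5. Pairs with a rho of at least 0.3 were 5 in P2- MEPs and 4 in P2+ MEPs when thinned to 50000 reads, and 4 in P2+ CMPs without the cell of highest score. Of the 10 genes nearest to the score 6 were shared without thinning and 2 with the lowest rho in place of the mean. The cause of these changes was not tested. No paired analysis was possible because each population is 1 pool and the cell numbers in the titles pair no cells. With 1 sample per population, no alternative measures the spread between samples.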
